A study of Mus musculus with 18 samples.

Results

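The vascular endothelial growth factor (VEGF) family was followed through 9 genes, 4 ligands (Vegfa, Vegfb, Vegfc and Pgf), 3 receptor tyrosine kinases (Flt1, Kdr and Flt4) and the co-receptors Nrp1 and Nrp2, out of 18193 named genes with a probe set in the series. All probe sets annotated to these genes were taken, 22 in number, and 21 of them passed the filter on low signals. The genes were listed with earlier results of these arrays known, Vegfc having already stood among the lower signals of impaired mice against young mice. Their levels and differences are therefore given as a description.

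Mouse hippocampus was measured with 1 Affymetrix array per sample in 3 groups of 6: aged mice whose spatial memory was impaired, aged mice whose spatial memory was unimpaired, and young mice. The labels name no strain, treatment or genotype, and do not record age, sex, hour of collection or batch. Whether each array stands for its own animal is not stated either, so every p-value measures only the spread between these samples, which may be technical. Levels are log2 signals, each array being scaled to a trimmed mean of 500 with 16 added before the logarithm, and a difference is called where limma's Benjamini-Hochberg adjusted p is under 0.05. On all 18 arrays a probe set of each of the Y-linked genes Eif2s3y (log2 signal 8.91 to 9.89), Kdm5d (7.71 to 8.78) and Uty (6.99 to 7.81) lay above Xist, which female cells express, and the highest Xist signal, 6.80, served as a gauge of background. It came from the brightest Xist probe set. The other Xist probe sets, left out by the filter, reached only 5.40 and 5.87, so this gauge is a high one. Neuronal markers were high in every sample, with a mean log2 signal of 12.66 ± 0.02 in aged impaired, 12.67 ± 0.10 in aged unimpaired and 12.68 ± 0.07 in young samples (SD, n = 6 each). Choroid plexus markers ranged widely within each group, their summed signal running from 19811 to 110050 in aged impaired, from 10864 to 99022 in aged unimpaired and from 23232 to 112406 in young samples. They also shifted between groups without a call: 20 of 20 tested were higher in aged impaired than in aged unimpaired samples (median difference 0.79), 19 of 20 were lower in aged unimpaired than in young samples (median -0.84) and 11 of 20 were lower in aged impaired than in young samples (median -0.01).

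VEGF ligands are secreted dimers that act on receptor tyrosine kinases, carried mainly by endothelial cells. Vegfa signals through Kdr (VEGFR2) to drive endothelial growth, migration and permeability, while Flt1 (VEGFR1) binds Vegfa, Vegfb and Pgf, signals weakly and is also made as a soluble form that holds ligand back. Vegfc signals through Flt4 (VEGFR3), the receptor of lymphatic vessels and of sprouting blood vessels, and in adult hippocampus Flt4 has also been described in neural stem cells. Neuropilins bind VEGF as well as class 3 semaphorins and are abundant on neurons.

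The results turn on Vegfc and Flt1, and the 250 bases before the transcription start of each are shown to give their context (RefSeq, GRCm38.p6, written 5′ to 3′ on the strand of the gene). The Vegfc window lies at chr8:54077282-54077531 on the plus strand and the Flt1 window at chr5:147726012-147726261 on the minus strand. Capitals mark matches, on either strand, to GGGCGG (the GC box), AGGAAG (an ETS core), TATAAA (the TATA box) and TGACGTCA (the cAMP response element).
Vegfc: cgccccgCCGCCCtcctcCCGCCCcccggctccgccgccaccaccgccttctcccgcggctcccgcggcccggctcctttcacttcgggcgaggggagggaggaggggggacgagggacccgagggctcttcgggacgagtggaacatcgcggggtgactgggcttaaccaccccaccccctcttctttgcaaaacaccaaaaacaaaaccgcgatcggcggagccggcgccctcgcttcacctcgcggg
Flt1: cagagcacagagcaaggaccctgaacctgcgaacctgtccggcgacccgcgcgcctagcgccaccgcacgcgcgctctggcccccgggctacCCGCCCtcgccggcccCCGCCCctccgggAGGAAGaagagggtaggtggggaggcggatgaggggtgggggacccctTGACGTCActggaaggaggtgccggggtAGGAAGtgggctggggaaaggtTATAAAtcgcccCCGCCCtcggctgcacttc
The windows were 71.6% G or C for Vegfc and 70.4% for Flt1. The Vegfc window held 2 GC boxes, at 243 and 232 bases before the start, and no match to the other letters, while 32.7% of all 32851 mouse windows of this length held at least 1 GC box. The Flt1 window held 3 GC boxes, 2 ETS cores, 1 TATA box at 31 bases and 1 cAMP response element at 81 bases before the start. Over all windows, 29.5% held an ETS core, 12.4% a TATA box and 1.5% a cAMP response element. No printed matches overlapped. The core of the hypoxia response element, ACGTG, was in neither window and in 16.6% of all windows. A match is a description of the letters and was not tested for use in this tissue.

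Vegfc, the ligand of Flt4, was the family member that differed most between groups. On its probe set of highest mean, 1439766_x_at, the lowest, median and highest log2 signals were 6.75, 6.97 and 7.31 in aged impaired samples, 7.12, 7.33 and 7.98 in aged unimpaired samples and 7.59, 7.84 and 8.08 in young samples. All 6 aged impaired samples lay below all 6 young samples. Of the aged unimpaired samples, 2 lay within the young range, 3 within the aged impaired range and 1 between them. In the deposited linear signal the group means were 34.5 in aged impaired, 47.8 in aged unimpaired and 64.7 in young samples. The log2 signal was lower in aged impaired than in young samples by -0.82 ± 0.14 (SE; 95% interval -1.12 to -0.53), 0.57 of the young level. This was a difference called by limma at a Benjamini-Hochberg adjusted p under 0.05 over all 27022 probe sets tested, and it is not offered as a test, since the gene was listed with it known. Among all probe sets tested, 0.6% were called lower in this comparison and 0.884% had all impaired samples below all young samples.

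Against aged unimpaired samples the Vegfc difference of aged impaired samples was -0.40 ± 0.14 (SE; 95% interval -0.70 to -0.11; limma adjusted p = 0.478), with 6 of 6 impaired samples below the unimpaired mean and overlapping ranges. Aged unimpaired against young gave -0.42 ± 0.14 (SE; 95% interval -0.72 to -0.12; limma adjusted p = 0.379), with 5 of 6 unimpaired samples below the young mean. Neither difference passed the test. The unimpaired group thus had a mean between the others, with steps of similar size on either side. These comparisons share samples, so their values are set side by side only.

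The other Vegfc probe sets were lower in aged impaired than in young samples by smaller amounts, and neither was called. Probe set 1440739_at averaged 6.99 ± 0.21 in aged impaired, 7.21 ± 0.38 in aged unimpaired and 7.38 ± 0.32 in young samples (SD, n = 6 each), and its impaired minus young difference was -0.39 ± 0.17 (SE; 95% interval -0.74 to -0.03). Probe set 1419417_at, matched to the RefSeq transcript of Vegfc, averaged 6.55 ± 0.16 in aged impaired, 6.77 ± 0.27 in aged unimpaired and 6.77 ± 0.33 in young samples, a difference of -0.23 ± 0.15 between aged impaired and young samples (SE; 95% interval -0.53 to 0.08). It was the dimmest of these, with 12 of 18 arrays at or below the highest Xist signal, against 3 of 18 for 1440739_at and 1 of 18 for 1439766_x_at. All group means of 1419417_at lay below that signal, so the size of its difference is uncertain. The mean of all 3 probe sets differed by -0.48 between aged impaired and young samples. The suffix of 1439766_x_at marks probes that may also match other transcripts, and which share of its signal came from Vegfc was not tested.

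Vegfa, the main angiogenic ligand, showed no called difference. Its log2 signal ran from 8.58 through a median of 8.71 to 8.92 in aged impaired samples, from 8.63 through 8.89 to 9.03 in aged unimpaired samples and from 8.38 through 8.75 to 9.11 in young samples. The young range held both aged ranges. The difference was -0.12 ± 0.11 (95% interval -0.35 to 0.11) for aged impaired against aged unimpaired, 0.13 ± 0.11 (-0.10 to 0.36) for aged unimpaired against young, and 0.0042 ± 0.11 (-0.23 to 0.23) for aged impaired against young. The second Vegfa probe set averaged 7.41 ± 0.28 in aged impaired, 7.33 ± 0.33 in aged unimpaired and 7.41 ± 0.30 in young samples. Vegfb, a ligand of Flt1 tied to fatty acid uptake by vessels, varied little, at 10.63 ± 0.16 in aged impaired, 10.65 ± 0.11 in aged unimpaired and 10.69 ± 0.12 in young samples. Its aged impaired against young difference was -0.06 ± 0.08 (95% interval -0.23 to 0.11). Pgf, placental growth factor, also a ligand of Flt1, spread more widely within each group, at 7.69 ± 0.45 in aged impaired, 7.77 ± 0.28 in aged unimpaired and 7.68 ± 0.33 in young samples (SD, n = 6 each), and its aged impaired against young difference was 0.02 ± 0.20 (95% interval -0.40 to 0.43).

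**Figure D1:**
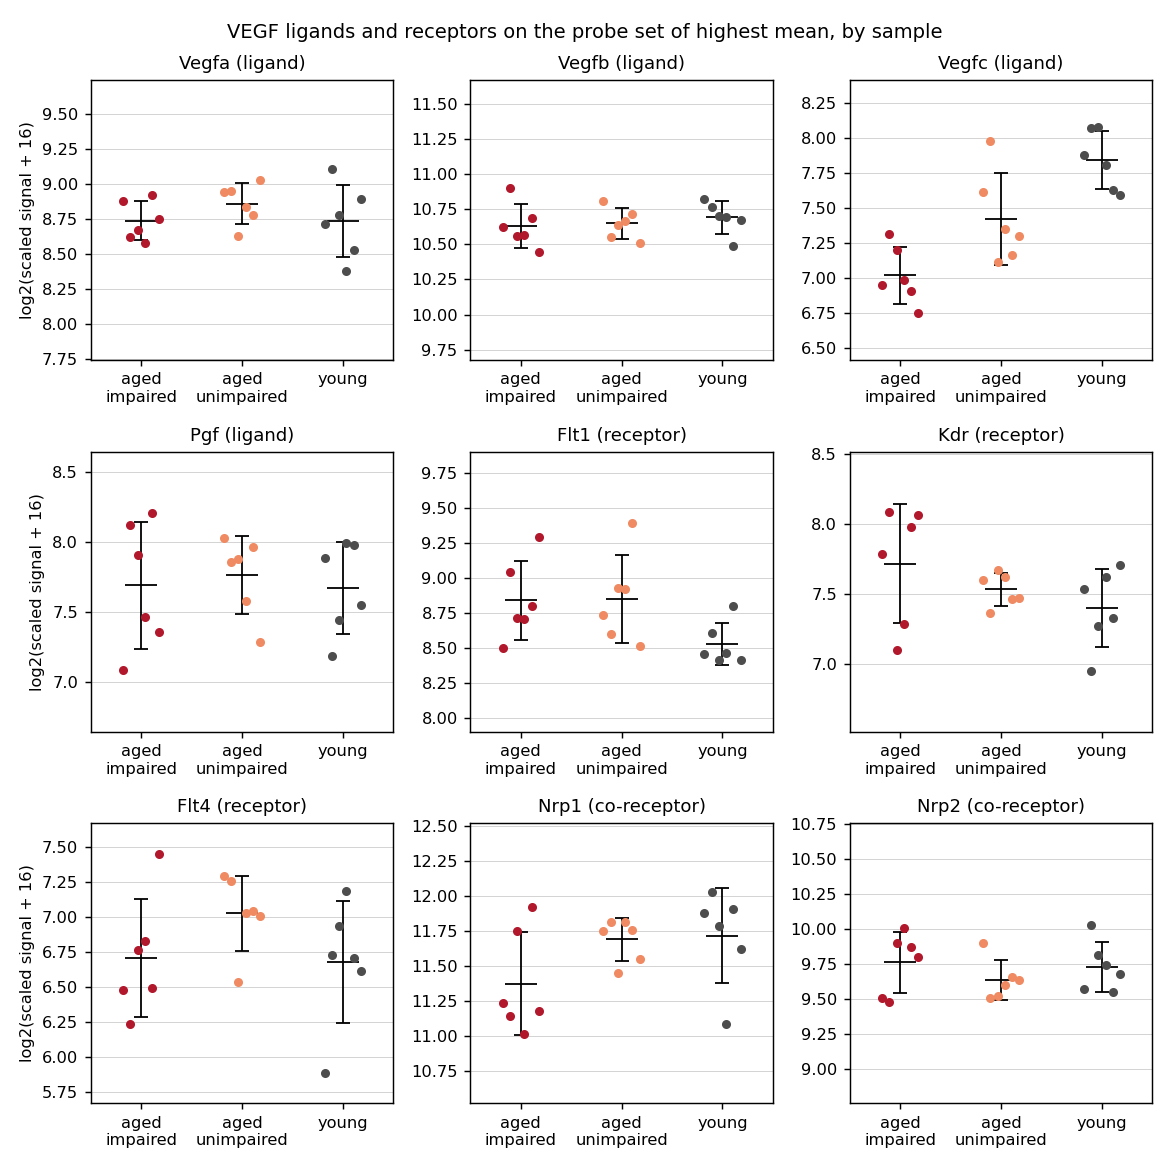
Log2 signal of each VEGF ligand, receptor and co-receptor on its probe set of highest mean, with aged impaired, aged unimpaired and young samples from left to right; points are samples (n = 6 each), bars the mean ± SD, and every panel spans the same number of log2 units. Vegfc is the panel in which all aged impaired samples (6.75 to 7.31) sit below all young samples (7.59 to 8.08), while the groups overlap for the other genes.

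Flt1, the receptor that binds Vegfa, Vegfb and Pgf, had higher means in both aged groups than in young samples on all 4 of its probe sets, with no call. Probe set 1419300_at gave 8.50, 8.76 and 9.29 (lowest, median and highest) in aged impaired samples, 8.51, 8.83 and 9.39 in aged unimpaired samples and 8.41, 8.46 and 8.80 in young samples. Probe set 1451756_at gave 8.16, 8.59 and 8.96 in aged impaired, 8.00, 8.41 and 8.69 in aged unimpaired and 7.96, 8.10 and 8.24 in young samples. On 1451756_at the young samples were tightly grouped at the low end and overlapped the lower aged samples. The overlap was wider on 1419300_at, where the highest young sample, 8.80, lay above the aged impaired median, 8.76. Aged impaired minus young was 0.32 ± 0.14 (95% interval 0.01 to 0.62) on 1419300_at, 0.46 ± 0.13 (0.17 to 0.74) on 1451756_at, 0.34 ± 0.15 (0.03 to 0.65) on 1440926_at and 0.32 ± 0.17 (-0.03 to 0.67) on 1454037_a_at. In that order the limma adjusted p was 0.296, 0.0990, 0.263 and 0.367, while the intervals are not adjusted for the number of probe sets. Every aged impaired sample was above the young mean on 1451756_at and on 1454037_a_at. Aged unimpaired minus young was 0.32 ± 0.14, 0.27 ± 0.13, 0.26 ± 0.15 and 0.22 ± 0.17 on the same probe sets, the first with a limma adjusted p of 0.572. Aged impaired minus aged unimpaired was -0.01 ± 0.14 (limma adjusted p = 0.997) on 1419300_at and 0.19 ± 0.13 (limma adjusted p = 0.750) on 1451756_at. The 4 probe sets read 1 gene on the same arrays and are not replicates of each other.

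Kdr, the main signalling receptor of Vegfa, had 1 probe set, with log2 signals of 7.10, 7.88 and 8.09 in aged impaired samples, 7.37, 7.54 and 7.67 in aged unimpaired samples and 6.95, 7.43 and 7.70 in young samples. The impaired samples reached higher than the others but their lowest lay inside the young range. The aged impaired minus young difference was 0.32 ± 0.17 (95% interval -0.03 to 0.66, limma adjusted p = 0.370). Aged impaired against aged unimpaired gave 0.18 ± 0.17 (limma adjusted p = 0.806) and aged unimpaired against young 0.13 ± 0.17 (limma adjusted p = 0.891). None of these Kdr differences passed the test. Flt4, the receptor of Vegfc, was near the gauge of background. Its brighter probe set averaged 6.71 ± 0.42 in aged impaired, 7.03 ± 0.27 in aged unimpaired and 6.68 ± 0.44 in young samples (SD, n = 6 each), with 9 of 18 arrays at or below the highest Xist signal. Its other probe set was at or below that signal on all 18 arrays. The lowest signal of the brighter probe set, 5.89, lay above the dimmer Xist probe sets, which reached 5.40 and 5.87. On the brighter probe set aged impaired minus aged unimpaired was -0.32 ± 0.21 and aged unimpaired minus young was 0.35 ± 0.21. Aged impaired minus young was 0.03 ± 0.21 there. None of these was called, and at signals this close to the gauge the size of a Flt4 difference is uncertain.

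**Figure D2:**
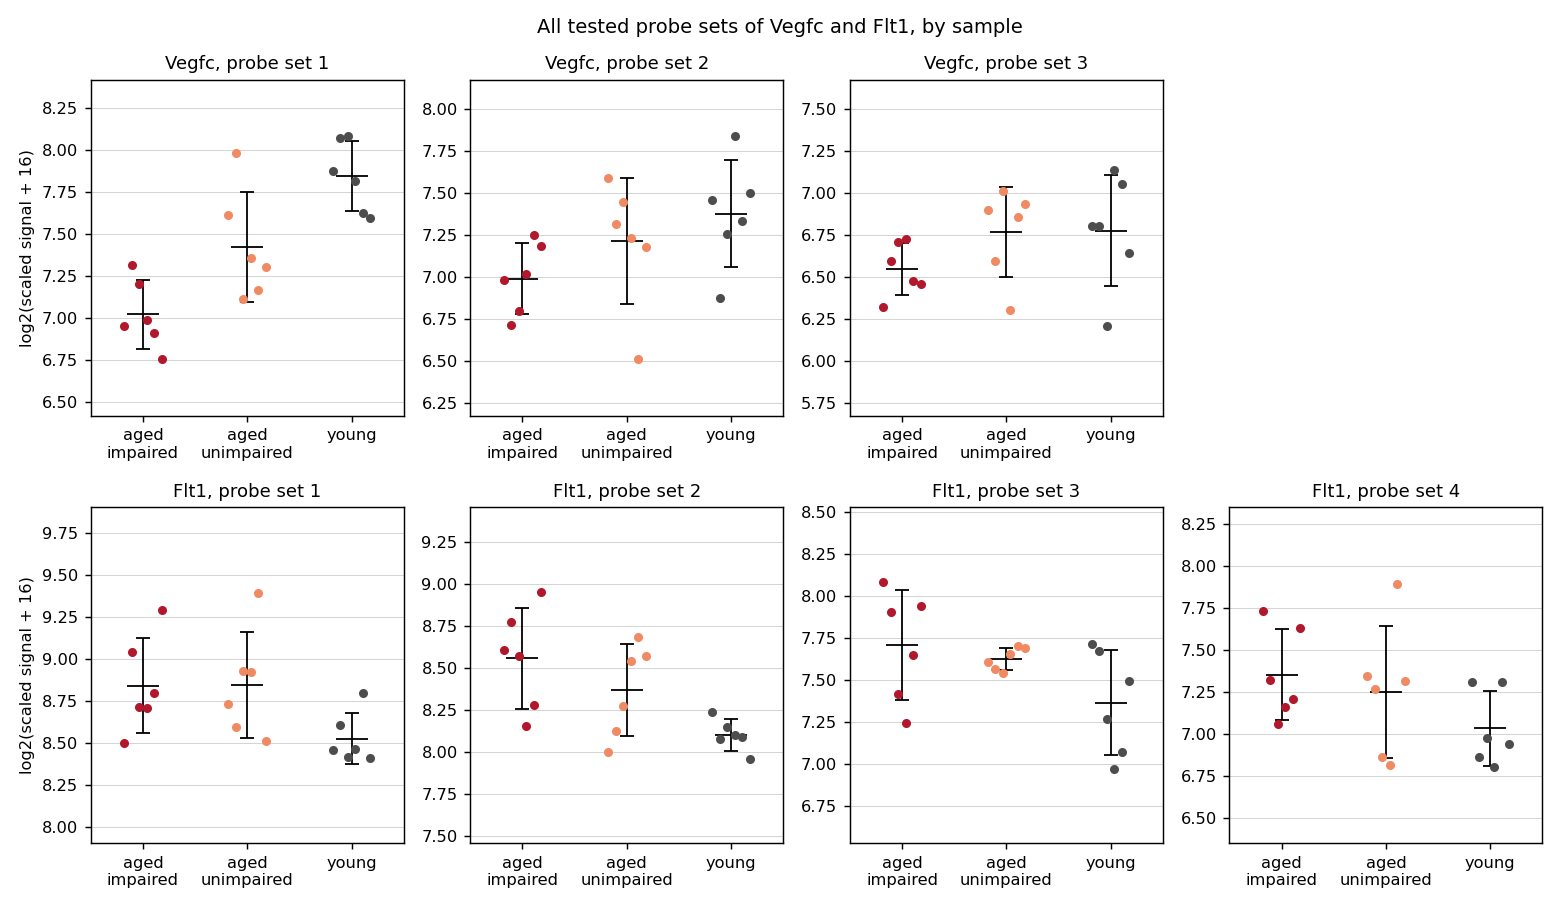
Log2 signal of every Vegfc and Flt1 probe set for the aged impaired, aged unimpaired and young groups, left to right; points are samples (n = 6 each) and bars the mean ± SD, with probe sets numbered by falling mean level. The Vegfc probe sets have their lowest means in the aged impaired group, and the Flt1 probe sets have their lowest means in the young group.

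Because whole hippocampus was measured, fewer cells of a type and less RNA per cell cannot be told apart. Endothelial cells carry Flt1 and Kdr, and 24 of 26 listed endothelial markers were tested, with no member of the family among them. None was called, 13 of 24 were higher in aged impaired than in young samples (median difference 0.07) and 16 of 24 were higher in aged unimpaired than in young samples (median 0.11), against 49.2% and 47.7% of all named genes. Their mean log2 signal was 8.72 ± 0.15 in aged impaired, 8.71 ± 0.07 in aged unimpaired and 8.63 ± 0.06 in young samples, and their summed signal ran from 14654 to 17524 in aged impaired, from 14614 to 17988 in aged unimpaired and from 14499 to 16366 in young samples. No tested marker was at 0 on every array, which the filter on low signals ensured beforehand. Of 14 markers of mural cells, which wrap vessels, none was called, and 7 were higher and 7 lower in aged impaired than in young samples. Single markers went both ways between aged impaired and young samples: Sox17, an endothelial transcription factor, differed by 0.48 ± 0.12 (limma adjusted p = 0.0574), Vwf, which carries clotting factor, by 0.76 ± 0.25 (adjusted p = 0.145) and Cldn5, a tight junction protein of the blood-brain barrier, by -0.36 ± 0.12 (adjusted p = 0.131). The mean endothelial signal was also used as a covariate. The aged impaired minus young differences were then 0.24, 0.33, 0.19 and 0.20 on the Flt1 probe sets, from brightest to dimmest. They were 0.18 for Kdr and -0.83 for Vegfc. Without a covariate the Flt1 differences were 0.32, 0.46, 0.34 and 0.32. With the mean choroid plexus signal as the covariate the differences were 0.32, 0.46, 0.34 and 0.32 for Flt1, 0.32 for Kdr and -0.83 for Vegfc. In the comparisons where choroid plexus markers did shift, the choroid plexus covariate gave a Vegfc difference of -0.48 in aged impaired against aged unimpaired and -0.34 in aged unimpaired against young, beside -0.40 and -0.42 without it.

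Other cell markers also moved between these groups. Of all named genes, 1.3% were called higher and 0.594% lower in aged impaired against young samples. Of 11 microglial markers tested, 7 rose in aged impaired against young samples by the limma test, and their summed signal ran from 15396 to 21512 in aged impaired, from 13692 to 19649 in aged unimpaired and from 10491 to 12307 in young samples. All 8 meningeal fibroblast markers had lower means in aged impaired than in young samples (median -0.50, none called), with sums of 2073 to 4716 in aged impaired, 2303 to 4698 in aged unimpaired and 3309 to 5093 in young samples. Col1a1, which builds type I collagen, differed by -1.14 ± 0.31 (limma adjusted p = 0.0697). All its aged impaired signals, 5.70 to 6.74, lay below the highest Xist signal, so that size is uncertain. Of 9 oligodendrocyte markers tested, 8 had higher means in aged impaired than in young samples, and the myelin genes Mog (0.46 ± 0.08, limma adjusted p = 0.00969) and Mag (0.63 ± 0.14, adjusted p = 0.0249) rose; the sums ran from 82442 to 122262 in aged impaired, from 74658 to 101917 in aged unimpaired and from 70593 to 102245 in young samples. Of 11 astrocyte markers 1 rose, Gfap, an intermediate filament (0.77 ± 0.14, limma adjusted p = 0.00992), with sums of 78830 to 96278 in aged impaired, 77652 to 91373 in aged unimpaired and 69565 to 90744 in young samples. Of 6 markers of oligodendrocyte precursors 1 fell, Gpr17, a receptor of differentiating precursors (-0.71 ± 0.12, limma adjusted p = 0.00532), with sums of 9326 to 11062 in aged impaired, 8907 to 10353 in aged unimpaired and 9138 to 10919 in young samples. No tested marker of these 5 lists was at 0 on every array, which the filter on low signals ensured beforehand. The part of these cells in the Vegfc difference was not tested.

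The co-receptors were bright and uneven between probe sets. The brightest Nrp1 probe set, 1448943_at, gave 11.02, 11.21 and 11.92 (lowest, median and highest) in aged impaired samples, 11.45, 11.76 and 11.82 in aged unimpaired samples and 11.09, 11.83 and 12.03 in young samples. Of the impaired samples, 4 lay below all unimpaired samples and the other 2 lay among or above them. Aged impaired minus young was -0.34 ± 0.17 (95% interval -0.69 to 0.01), and aged impaired minus aged unimpaired was -0.32 ± 0.17 (95% interval -0.67 to 0.03; limma adjusted p = 0.656). The next brightest, 1418084_at, was level across groups, at 10.62 ± 0.15 in aged impaired, 10.56 ± 0.08 in aged unimpaired and 10.62 ± 0.12 in young samples, and the mean of all 4 Nrp1 probe sets differed by -0.07 between aged impaired and young samples. Nrp2 averaged 9.76 ± 0.22 in aged impaired, 9.63 ± 0.14 in aged unimpaired and 9.73 ± 0.18 in young samples (SD, n = 6 each), with an aged impaired minus young difference of 0.03 ± 0.11. Among the tested Nrp2 probe sets the largest difference was on 1435349_at, -0.25 ± 0.12 in aged unimpaired against young samples (limma adjusted p = 0.611). The Nrp2 probe set left out by the filter had a median of 5.21 in aged impaired, 4.46 in aged unimpaired and 5.11 in young samples.

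Over the whole family, 0 of 9 genes were called between aged impaired and aged unimpaired samples, where 0.00762% of 13121 named genes were, and 0 of 9 between aged unimpaired and young samples, where 0.145% were. The limma adjusted p of the 21 probe sets ran from 0.478 to 0.997 in the first and from 0.379 to 0.995 in the second. Between aged impaired and young samples 1 of 9 genes, Vegfc, was called, where 1.9% of all named genes were, and nothing is read from that count because the list was made with it known. The 95% interval excluded 0 for 1 of 21 probe sets in aged impaired against aged unimpaired (8.09% over all probe sets), 2 of 21 in aged unimpaired against young (8.19%) and 5 of 21 in aged impaired against young (15.8%). The 5 were 2 probe sets of Vegfc and 3 of Flt1. The median difference of the 21 was -0.0051 in aged impaired against aged unimpaired, -0.0180 in aged unimpaired against young and 0.0042 in aged impaired against young, where the medians over all named genes were 0.0067, -0.0075 and -0.0030.

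**Figure D3:**
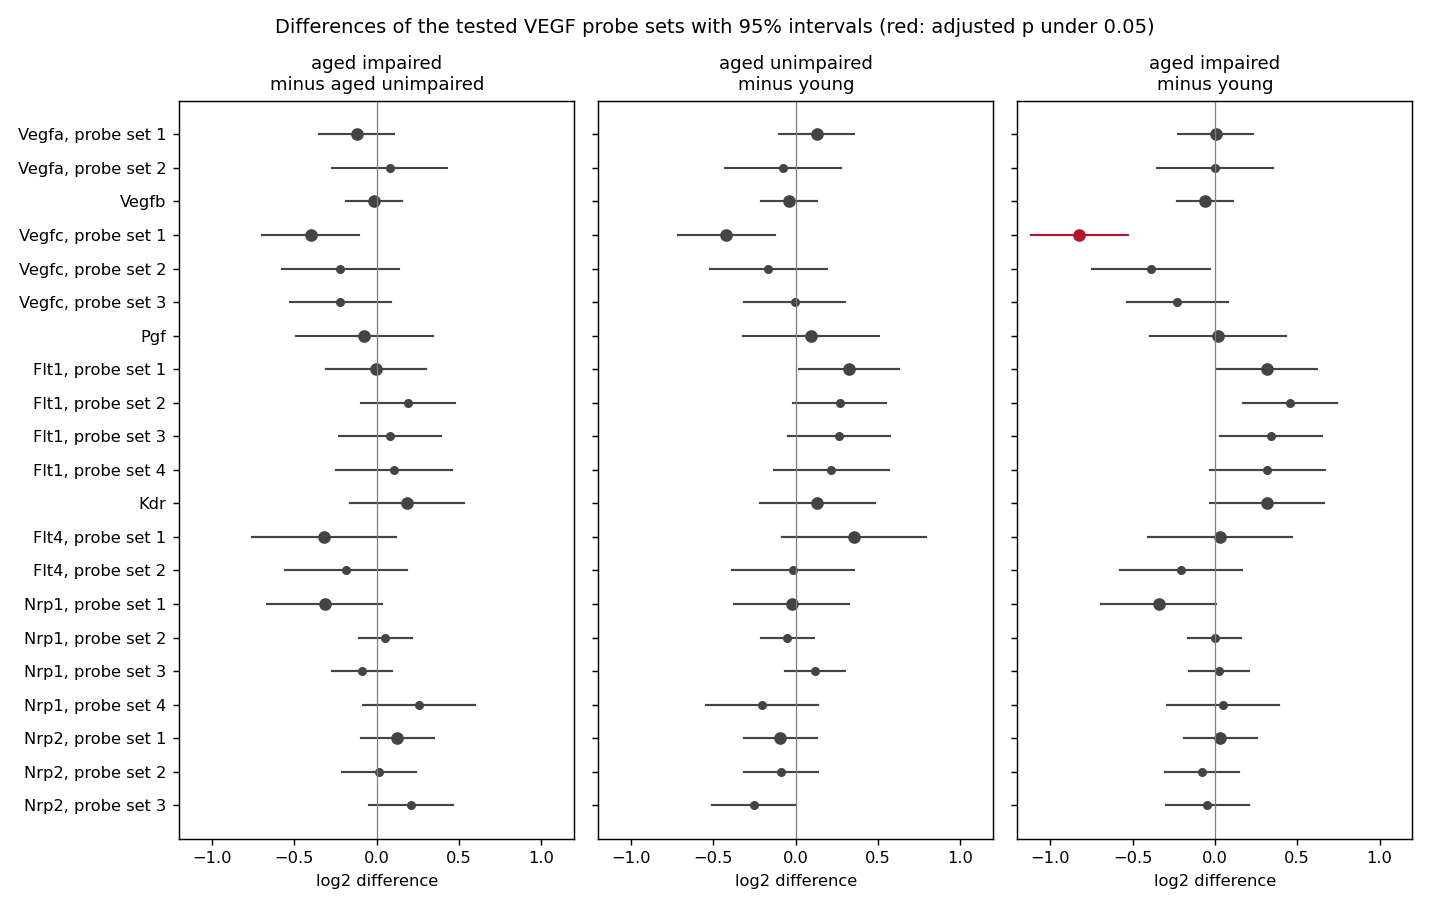
Difference in log2 signal with its 95% interval for every tested probe set of the family, in aged impaired against aged unimpaired, aged unimpaired against young and aged impaired against young; large dots are the probe set of highest mean, and red marks a call at an adjusted p under 0.05 over all probe sets. Vegfc at -0.82 in aged impaired against young is the call, and most other intervals cross 0.

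The wider pathway was read through 6 lists of genes grouped by role, 211 genes in all, of which 187 were tested. In aged impaired against aged unimpaired samples 112 had higher and 75 lower means and none was called. In aged unimpaired against young 84 were higher and 103 lower, and 1 fell. In aged impaired against young 93 were higher and 94 lower, 3 rose and 1 fell. Of all named genes, 0.0305% fell in aged unimpaired against young, and 1.3% rose and 0.594% fell in aged impaired against young.

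Among the 36 tested genes of hypoxia and HIF signalling, the response that induces Vegfa, 22 had higher means in aged impaired than in young samples (median 0.05) and 2 rose. Slc2a1, the glucose transporter of the blood-brain barrier, averaged 11.50 in aged impaired against 11.09 in young samples, a difference of 0.41 ± 0.08 (SE; limma adjusted p = 0.0188), with 0.37 and 0.26 on its other probe sets. Without young replicate 6 its adjusted p was 0.0508, and with the endothelial covariate 0.0765. Vldlr, a lipoprotein receptor, averaged 11.10 in aged impaired against 10.73 in young samples, a difference of 0.37 ± 0.09 (adjusted p = 0.0365), and its other probe sets ranged from -0.07 to 0.25. Leaving out any 1 of 9 samples (aged impaired replicates 2 to 6 and young replicates 2, 4, 5 and 6) ended that call, with adjusted p from 0.0508 to 0.0862.

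Of 56 tested genes of VEGF receptor signalling, 25 had higher and 31 lower means in aged impaired than in young samples (median -0.02). Itgav, an integrin subunit that works beside Kdr, averaged 11.42 in aged impaired against 11.06 in young samples and rose by 0.36 ± 0.09 (limma adjusted p = 0.0469), with 0.06 on its other probe set. Its call was lost without any 1 of 15 samples (aged impaired replicates 2 to 6, aged unimpaired replicates 1 to 5 and young replicates 1, 2, 4, 5 and 6), at adjusted p from 0.0502 to 0.0999. Hspb1, a small heat shock protein of endothelial migration, differed by -0.63 ± 0.17 (limma adjusted p = 0.0717), with -0.4 on its other probe set. The adaptor Nck1 differed by -0.31 ± 0.08 (limma adjusted p = 0.0672), with -0.09 on its other probe set. The focal adhesion protein Pxn differed by 0.35 ± 0.10 (limma adjusted p = 0.0881), with 0.19 and 0.2 on its other probe sets. Sphk1, the kinase that makes sphingosine 1-phosphate, was called lower in aged unimpaired than in young samples (limma adjusted p = 0.0233). Its means, 5.27 in aged unimpaired and 6.56 in young samples, both lay below the highest Xist signal, so no size is given for the difference. That call was lost without aged unimpaired replicate 6 or young replicate 2 or 6, at limma adjusted p from 0.0539 to 0.0604. It was also lost with no filter on low signals. The aged unimpaired mean lay below the cut of that filter, 5.92, so Sphk1 was tested only through the higher signals of the other groups.

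Of 23 tested genes that VEGF is known to induce in endothelial cells, 11 had higher and 12 lower means in aged impaired than in young samples. Nr4a2, an immediate early nuclear receptor also induced by neuronal activity, averaged 11.14 in aged impaired against 11.60 in young samples, a difference of -0.46 ± 0.10 (limma adjusted p = 0.0314), and its other probe sets gave -0.37, -0.57 and -0.61. Leaving out any 1 of 8 samples (aged impaired replicates 1, 4 and 6 and young replicates 1, 2, 3, 5 and 6) ended the call, with adjusted p from 0.0520 to 0.0762. Icam1, a leukocyte adhesion molecule, differed by 0.92 ± 0.23 (adjusted p = 0.0567) without passing the test. All its young signals, 5.99 to 6.72, lay below the highest Xist signal, so that size is uncertain. Nr4a3 and Egr1, both immediate early genes, differed by -0.19 ± 0.07 (adjusted p = 0.204) and -0.24 ± 0.11 (adjusted p = 0.274).

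Of the 11 tested genes for ligand processing and other ligands, 8 had lower means in aged impaired than in young samples (median -0.10) and none was called. Plat, tissue plasminogen activator, whose product plasmin can cleave VEGF-C, differed by -0.36 ± 0.09 (limma adjusted p = 0.0585) with 0.49 on its second probe set, and Furin, a protease that processes VEGF-C, by -0.26 ± 0.16 (adjusted p = 0.438). In the same list Mmp14 differed by -0.21 ± 0.09 (limma adjusted p = 0.272), with -0.65 and -0.74 on its other probe sets. Pcsk7 went the other way, by 0.19 ± 0.10 (limma adjusted p = 0.389). Vegfd, the other ligand of Flt4, differed by 0.38 ± 0.23 in aged unimpaired against young samples on its brightest probe set (adjusted p = 0.694), with -0.52 and 0.11 on its other probe sets. Of 20 tested semaphorins and plexins, which share the neuropilins with VEGF, 10 were higher and 10 lower in aged impaired than in young samples. Sema3e, a ligand of Plxnd1, differed by -0.37 ± 0.15 (adjusted p = 0.211). Of 41 tested genes of angiopoietin, Notch and other vessel signalling, 22 were higher and 19 lower. Sparc, a matrix protein, differed by 0.25 ± 0.08 (adjusted p = 0.110) and Notch4, the endothelial Notch receptor, by 0.36 ± 0.12 (adjusted p = 0.146). Foxc1 went the other way, by -0.50 ± 0.21 (limma adjusted p = 0.266), with -0.34 on its other probe set.

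**Figure D4:**
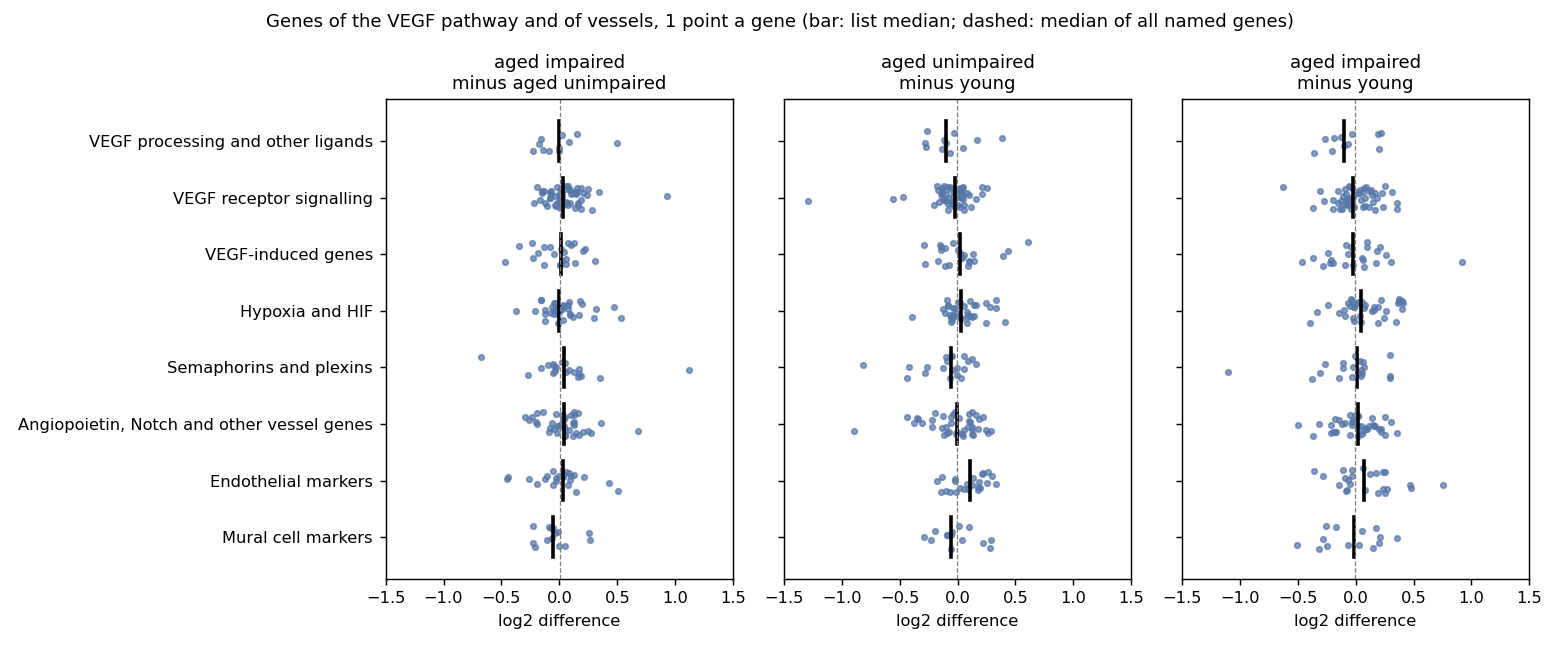
Differences in log2 signal of the tested genes of the 6 pathway lists in aged impaired against aged unimpaired, aged unimpaired against young and aged impaired against young; with the endothelial and mural marker lists beside them; points are genes, bars the median of each list and dashed lines the median of all named genes. The list medians lie near 0 and the genes of each list spread to both sides.

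The genes whose signal followed each member most closely over the 18 samples were taken by Pearson correlation on the log2 scale, as a description that includes the group differences. For Vegfc these were Hsp90b1, an endoplasmic reticulum chaperone (r = 0.87), Mrpl36, a mitochondrial ribosomal protein (r = 0.86), and Akt1s1, an inhibitor of mTORC1 (r = 0.86). For Flt1 they were Syt7, a synaptotagmin (r = 0.86), Ap3d1, an adaptor complex subunit (r = 0.82), and Gnpda1, an enzyme of glucosamine metabolism (r = 0.81). For Kdr they were Ccdc88b (r = 0.78), Cd109 (r = 0.78) and Pars2 (r = 0.77), and for Vegfa they were Sos2 (r = 0.77), Prr14 (r = 0.76) and Supt20 (r = 0.76). None of these was on the endothelial marker list. They were picked as the highest r among all named genes outside the family. Such values over 18 samples can arise by selection alone, and this was not tested.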

How the data were processed

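Signals were deposited by the authors as linear probe set intensity for 18 arrays, and per the submitters' processing notes MAS5, of unnamed version, produced them. Each deposited array has a trimmed mean of 150 with 2% left out at each end. Here arrays were scaled to a trimmed mean of 500, 16 was added and log2 taken, so that folds of weak signals come out too small. After removing 64 control probe sets and the weakest 40% of the remainder by mean, 27022 stayed. A model of 3 group means over all samples was fitted with limma 3.58.1 (R 4.3.3) and empirical Bayes moderation, and Benjamini-Hochberg adjusted p under 0.05 was called; the fit was checked on simulated data. A gene stands on its probe set of highest mean. Symbols came from the platform annotation, updated through RefSeq GRCm38.p6 (34897 of 34945 probe sets with 1 symbol matched; 932 had several and 9160 none). All member probe sets are accounted for; from each list, called genes and up to 4 genes of lowest p were eligible for naming. The members, lists and tests were chosen with earlier results of these data known. Alternatives changed normalization, offset, filter, samples, covariates and moderation. Arrays have no read depth, so their number limits precision.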

Additional observations from a re-analysis of the deposited data

How the results depend on the processing

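The limits are 6 arrays a group, dim Flt4 and Vegfc probe sets and no batch record. The Vegfc difference between aged impaired and young samples ran from -0.90 with an offset of 1 to -0.64 with an offset of 64 on its brightest probe set, and leaving out single samples gave -0.88 to -0.77; it was called in 29 of 29 refits that tested it. Of 1860 refits of family differences that gave a test, 1859 kept their side of the threshold, and the exception was Flt1 1451756_at, called with the RNA quality covariate. The means of all probe sets had no test. Of 27 such differences, 26 moved by no more than the spread between samples. The other was Vegfc in aged impaired against young samples, at -0.48. Vegfb, Pgf and Kdr had 1 tested probe set each, so their differences could not move here. With the 60% filter Vegfc was not tested and 0 family genes were called, against 1.

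Probe sets called between aged impaired and aged unimpaired samples were 3, against 6 with the 60% filter, 0 with the replicate block, 0 with only the groups compared, 9 with trended and robust moderation and 2 to 4 with single samples left out. Between aged unimpaired and young samples they were 37, against 13 with no filter, 17 with the replicate block, 22 with only the groups compared, 57 with array weights, 58 with trended and robust moderation, 15 with the endothelial covariate, 23 with the RNA quality covariate and 16 to 37 with single samples left out, the low counts coming without aged unimpaired replicate 1, 3 or 6 or young replicate 2, 5 or 6. Between aged impaired and young samples they were 440, against 193 with no filter, 240 with the replicate block, 241 with only the groups compared, 180 with the endothelial covariate and 228 to 467 with single samples left out, the low counts coming without aged impaired replicate 2, 3 or 6 or young replicate 1, 5 or 6. Pathway genes called between aged unimpaired and young samples were 1, against 0 with no filter, the 60% filter, the replicate block or only the groups compared, and 0 to 1 with single samples left out. Between aged impaired and young samples they were 4, against 0 with no filter, 7 with the 60% filter, 1 with the replicate block, 0 with only the groups compared, 7 with trended and robust moderation, 0 with the endothelial covariate and 0 to 5 with single samples left out. Over 30 alternatives Slc2a1 lost its call in 4, Nr4a2 in 12, Vldlr in 13 and Itgav in 20, and Sphk1 lost its call in 6 of 29; the adjusted p ran up to 0.0765 for Slc2a1, 0.122 for Nr4a2, 0.138 for Vldlr, 0.123 for Itgav and 0.103 for Sphk1. Apart from fewer tests or samples by construction, the cause was not tested.

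Samples with the same number did not deviate together (18 pairs, r from -0.25 to 0.10, none over 0.1), and no array was most like its own number, so the replicate block is an alternative only.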
